A study of Mus musculus with 6 samples.

Results

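Complex I subunits are the protein components of NADH:ubiquinone oxidoreductase, the largest enzyme of the mitochondrial respiratory chain. The 36 genes described here are all rows of the deposited table whose mouse identifier maps to a protein-coding symbol made of Ndufa, Ndufb, Ndufc, Ndufs or Ndufv and a number, out of 54385 rows in all. Assembly factors and symbols with further letters were left out by that rule. The genes lie on 15 chromosomes, 2 of them on chromosome X.

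Messenger RNA came from 6 samples of the interscapular depot, the brown fat that lies between the shoulder blades and produces heat, of C57BL/6N mice. In 3 samples (AdKO) both Adcy3 alleles were floxed and one Adipoq allele carried Cre (Adcy3-FL/FL/Adipoq-wt/cre). The other 3 (WT) carried the same floxed Adcy3 alleles without Cre (Adcy3-FL/FL/Adipoq-wt/wt). All had eaten chow for 20 weeks and spent the last 24 hours at 5 °C. The Adipoq promoter drives Cre in white and brown adipocytes alike, so other cells of the depot keep the enzyme, and the WT animals are floxed mice, not mice with unmodified Adcy3. Adcy3 encodes adenylyl cyclase 3, which makes cyclic AMP. The comparison asks whether complex I transcripts of cold-exposed brown fat differ when adipocytes lack it.

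Complex I takes electrons from NADH, passes them through flavin and iron-sulfur clusters to ubiquinone, and pumps protons into the intermembrane space. It has a peripheral arm, with an NADH-oxidising module and a quinone-reducing module, and a membrane arm whose core subunits are encoded by mitochondrial DNA. In brown fat the proton gradient it helps to build is dissipated as heat by the uncoupling protein Ucp1. Nuclear subunit genes are known targets of the factors NRF1, GABP, YY1 and ERR-alpha and of the coactivator PGC-1alpha.

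Library totals were 13956467 to 17537675 estimated counts. Adcy3 fell to 25.4 ± 4.39 CPM (counts scaled to a library of 1000000) in AdKO fat, against 154 ± 17.6 CPM in WT fat (SD, n = 3 each; edgeR log2 fold change -2.60, adjusted p = 0.00146). The brown fat marker Ucp1 stood at 7161, 7111 and 7592 CPM in AdKO libraries 1 to 3 and at 5398, 6008 and 5850 CPM in WT libraries 1 to 3. All 10 brown adipocyte markers had a positive log2 fold change, AdKO over WT, against 51.7% of all genes tested. Their median was 0.34 (0.32 without AdKO library 1). Every AdKO library was above every WT library for 5 of the 10, against 7.63% of all genes tested. The part of these markers in the complex I values was not tested. The libraries also held muscle RNA. The 20 skeletal muscle markers summed to 0.948%, 0.0747% and 0.0103% of counts in AdKO libraries 1 to 3. In WT libraries 1 to 3 they summed to 2.25%, 2.02% and 1.71%. None was at 0 in any library. Of the 20, 18 were lower in each AdKO library than in each WT library, against 10.8% of all genes tested. AdKO library 1 stood apart by transcript length. Splitting all genes tested into 10 equal bins of length, the median deviation of log2 CPM from the WT mean in that library was 0.43 in the bin of shortest transcripts and -0.40 in the bin of longest, against -0.06 and 0.08 in AdKO library 2 and 0.09 and -0.02 in AdKO library 3. The 6 fibroblast markers summed to 0.0423%, 0.0310% and 0.0262% of counts in AdKO libraries 1 to 3 and to 0.0745%, 0.0486% and 0.0703% in WT libraries 1 to 3. The 7 macrophage markers summed to 0.0127%, 0.00643% and 0.00569% of counts in AdKO libraries 1 to 3 and to 0.0124%, 0.00759% and 0.0153% in WT libraries 1 to 3. All 7 had a negative log2 fold change, with a median of -0.37 (-0.86 without AdKO library 1). All 6 fibroblast markers also had a negative log2 fold change, with a median of -0.77 (-0.99 without AdKO library 1). The part of fibroblast and macrophage RNA in the subunit values was not tested. Median log2 fold changes of gene lists, those by motif apart, are given with and without AdKO library 1. In whole tissue, fewer cells of a type and less RNA per cell cannot be told apart.

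All 36 genes of the naming rule leaned higher in AdKO fat, and none passed the test. Each of the 36 was abundant enough to be tested, the lowest count of any of them in any library being 857. All 36 had a positive log2 fold change, AdKO over WT, between 0.14 and 0.45 with a median of 0.32; over all 14767 genes tested, 51.7% were positive and the median was 0.01. At an adjusted p under 0.05 in edgeR's quasi-likelihood test, 0 of 36 were called, and the share called over all genes was 0.0609% in either direction (0.0271% higher and 0.0339% lower). At an unadjusted p under 0.05, 3 of 36 were higher and 0 were lower, against 2.87% higher and 7.6% lower over all genes. DESeq2 called 0 of 36, against 2.08% of all genes in either direction, and had 13 of 36 higher at an unadjusted p under 0.05, against 3.53% of all genes. limma-voom called 0 of 36, against 0.223% of all genes, and had 3 higher at an unadjusted p under 0.05, against 2.86%. The 36 signs come from the same 6 libraries and are not independent observations.

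The lean was largest in 1 library. AdKO library 1 was the highest of the 6 libraries for 35 of the 36 subunits, the exception being Ndufs1; over all genes tested it was the highest for 28.2%. The median subunit stood at 1.61 times its WT mean in AdKO library 1, and at 1.08 times it in the mean of AdKO libraries 2 and 3. On the log2 scale the median deviation from the WT mean was 0.69, 0.03 and 0.19 in AdKO libraries 1 to 3, while the WT libraries lay between -0.04 and 0.02. In AdKO library 3 all 36 subunits were above their WT mean and 31 were above every WT library, against 50.3% and 29.2% of all genes. In AdKO library 2, 21 were above the mean and 11 (30.6%) above every WT library, near the shares of all genes, 50.9% and 28.8%. Without AdKO library 1 the median log2 fold change was 0.12, with 31 subunits positive, 5 negative and 0 called, while the share of all genes called in that fit was 0.296% higher and 5.35% lower.

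**Figure D1:**
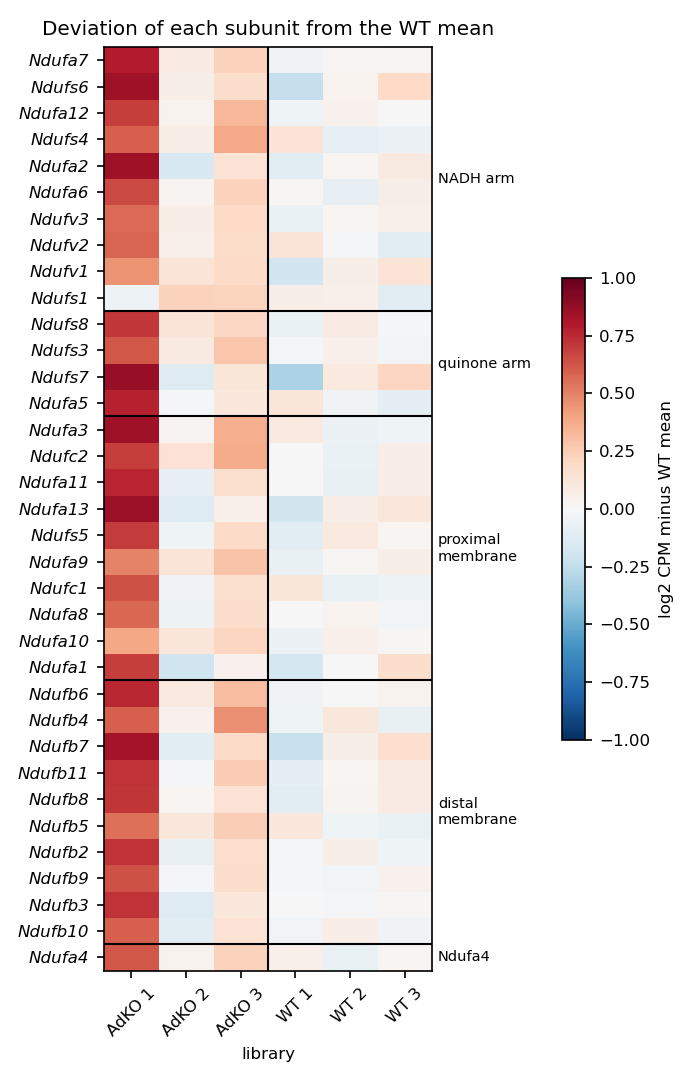
Deviation of log2 CPM from the WT mean for 35 subunits (rows, grouped by position in the complex) in each library (columns, AdKO left of WT; 1 square is 1 gene in 1 library). AdKO 1 has the highest value in 34 of the 35 rows, the exception being Ndufs1; AdKO 3 is above 0 in all 35 rows and AdKO 2 in 20.

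The subunits were expressed over a 9.91-fold range per kilobase. Levels between genes are compared here as CPM per kilobase of 1 annotated transcript, averaged over the 6 libraries. The median subunit was at 221 CPM per kb. The top of the order was Ndufa4, at 787 ± 165 CPM per kb in AdKO fat and 632 ± 26.2 in WT fat (SD, n = 3 each). Ndufa4 was named as a complex I subunit but is now assigned to cytochrome oxidase, complex IV. High levels were also found for Ndufb8 (574 CPM per kb over all 6 libraries) and Ndufb9 (532), which differed from each other by less than the SD of each in AdKO fat. Ndufv1 was lower, at 346 CPM per kb. The bottom of the order held Ndufa13 (102 CPM per kb), Ndufs4 (87.6), Ndufc1 (79.1) and Ndufb4 (71.6). Of the 35 neighbouring pairs in the order, 25 differed by less than the larger of their SDs in both genotypes. The ranking of the 36 by CPM was alike in all libraries, with rank correlations between 0.951 and 0.992 over the 15 pairs of libraries, a description over genes that share each library. Levels depend on the transcript assumed: with the longest well-supported transcript Ndufb8 would be at 182 and Ndufb2 at 17.98 CPM per kb, in place of 574 and 173.

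**Figure D2:**
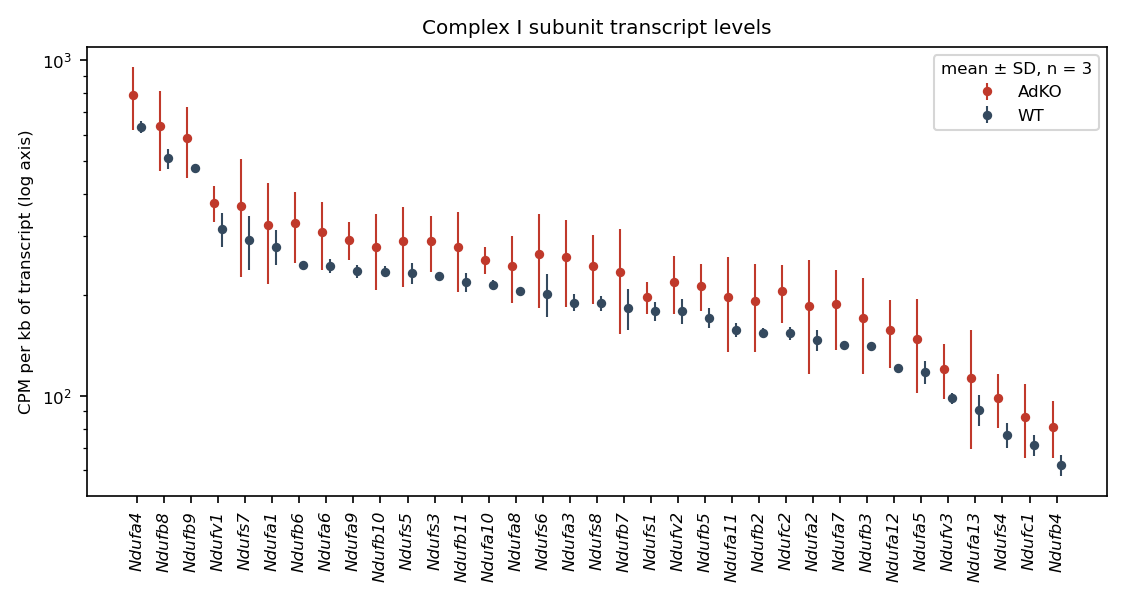
Level of 35 subunits as CPM per kb of transcript (log axis), mean and SD of 3 AdKO libraries (red) and 3 WT libraries (dark), ordered by the WT mean. The AdKO mean is above the WT mean for every gene, and the AdKO error bars are wider; the order runs from Ndufa4, at 632 CPM per kb in WT fat, to Ndufb4.

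Ndufb4, the lowest of the 36 by its own counts, is a special case because an annotated copy credited with counts shares its whole coding sequence. Whether the copy is transcribed was not tested. Ndufb4 (ENSMUSG00000022820, chr16:37647170-37654453, minus strand, GRCm38) encodes an accessory subunit of the distal membrane arm. The processed pseudogene Ndufb4c (chr15:73809507-73809896, minus strand), a single 390-base transcript in GENCODE vM21, matches bases 95 to 484 of the 971-base Ndufb4 transcript without a mismatch. The stretch is an open reading frame of 129 codons and a stop. Its first 150 bases are shown, with the start codon in capitals, because reads inside the stretch cannot be assigned to either locus by sequence.
Ndufb4 and Ndufb4c, start of the shared stretch: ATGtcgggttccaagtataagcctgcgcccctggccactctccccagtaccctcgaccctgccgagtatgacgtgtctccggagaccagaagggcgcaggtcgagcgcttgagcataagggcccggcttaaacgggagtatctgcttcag

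The deposited counts credited more reads to the copy than to the gene in all 6 libraries. Ndufb4c had 2123, 1214 and 1612 estimated counts in AdKO libraries 1 to 3 and 1412, 1337 and 1341 in WT libraries 1 to 3. Ndufb4 itself had 1348, 951 and 1395 in AdKO libraries and 995, 1139 and 857 in WT libraries. The copy therefore held 56.9% ± 3.85 of the pair's sum in AdKO fat and 57.9% ± 3.57 in WT fat (SD, n = 3 each), with overlapping groups. No source at hand says how the estimation divided the shared reads, so each level is uncertain and the sum is the firmer value. The sum was 185 ± 47.2 CPM in AdKO fat and 144 ± 3.20 CPM in WT fat (SD, n = 3 each). Over the length of the Ndufb4 transcript the sum came to 169 CPM per kb, above 9 other subunits, so the last place of Ndufb4 rests on how the reads were divided, and Ndufc1 would take it. The summed pair had a log2 fold change of 0.36 ± 0.18 (SE, edgeR adjusted p = 0.547), against 0.38 ± 0.16 for Ndufb4 alone (adjusted p = 0.464). In a search of the GENCODE transcripts, 7 of the 36 subunits had such a near-identical annotated copy (at least 95% identity over at least 80% of the copy), 8 copies in all, each a pseudogene. Only Ndufb4c and a copy of Ndufa12, with 2 counts in total, had any counts.

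Promoters of the subunits were searched for the letters bound by known regulators of respiratory genes. RefSeq promoter sequences (GRCm38.p6, 250 bases before to 50 after a start site) were used for 32 of the 36. In all, 11 patterns were looked at on both strands, and the 4 described here were picked after their shares had been seen, so these shares are a description only. The NRF1 motif, GCGC followed by A, any base and GCGC, was found, on either strand, at 7 of 32 genes (21.9%), against 5.19% of all 27025 genes in that table. The 9 matches are printed with their flanks, the motif in capitals and the strand that of the gene, since several members share the pattern. Ndufb4 has 3.
Ndufa11, chr17:56717692-56717721, plus strand: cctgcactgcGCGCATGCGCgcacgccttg
Ndufa5, chr6:24527697-24527726, minus strand: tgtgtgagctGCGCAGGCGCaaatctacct
Ndufa6, chr15:82354249-82354278, minus strand: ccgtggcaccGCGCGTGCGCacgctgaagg
Ndufa8, chr2:36049349-36049378, minus strand: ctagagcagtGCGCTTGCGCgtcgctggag
Ndufb4, chr16:37654540-37654569, minus strand: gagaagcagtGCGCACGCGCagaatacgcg
Ndufb4, chr16:37654428-37654457, minus strand: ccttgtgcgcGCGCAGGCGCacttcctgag
Ndufb4, chr16:37654371-37654400, minus strand: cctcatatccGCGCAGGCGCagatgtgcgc
Ndufs5, chr4:123718265-123718294, minus strand: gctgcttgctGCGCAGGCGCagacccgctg
Ndufs6, chr13:73328479-73328508, minus strand: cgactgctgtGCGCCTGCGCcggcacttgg

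The YY1 motif, AAGATGG followed by CGGC, was found at 4 of 32 (12.5%), against 0.755% of all genes. In all 4 it lay on the gene's own strand between 25 and 36 bases after the start site. These windows are shown because the match sits at nearly the same place in each. The letters of the motif include ATG, so a match may also be coding sequence, which was not examined.
Ndufa9, chr6:126849096-126849124, minus strand: ttgtgggagAAGATGGCGGCcgccgtccg
Ndufs4, chr13:114388045-114388068, minus strand: gcctacaggAAGATGGCGGCggtc
Ndufs6, chr13:73328433-73328458, minus strand: gtcaccggcAAGATGGCGGCggtgct
Ndufs7, chr10:80249464-80249492, plus strand: gccgaggccAAGATGGCGGCgctggcggg

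The ETS-type motif CCGGAAG, which GABP recognises, was at 4 of 32 (12.5%, against 9.93% of all genes), and the ERR half-site AAGGTCA at 3 of 32 (9.38%, against 5.38%). Genes with and without a motif had like fold changes: the median log2 fold change was 0.33 with and 0.32 without the NRF1 motif, and 0.35 with and 0.32 without the YY1 motif. Of the 7 other patterns, the invariant NRF1 form with T as its free base was at 3.12% (against 1.07% of all genes), the shorter NRF1 pattern GCGCA at 62.5% (32.9%) and its reverse complement TGCGC at the same genes, the ERR half-site preceded by TC at 0 of 32 (0.466%), the YY1 core GATG followed by GCGG at 15.6% (1.97%), a YY1 variant, CCGCC followed by AT, any base and TT, at 12.5% (1.59%), and the CCAAT box at 31.2% (41.1%). Patterns of one factor overlap each other. A match is a description of letters and not evidence of binding. None of the regulators was called. Esrra, which encodes ERR-alpha, stood at 301, 202 and 224 CPM in AdKO libraries 1 to 3 and at 167, 202 and 210 CPM in WT libraries (log2 fold change 0.33 ± 0.18, SE; edgeR adjusted p = 0.571). Of the 12 regulators, 9 had a positive and 3 a negative log2 fold change, with a median of 0.10; without AdKO library 1 all 12 were positive, with the same median to 2 decimals. Those next in order of p were Ppargc1b, a PGC-1 coactivator (0.26), Tfam, which packages and transcribes mitochondrial DNA (0.17), and Gabpa, the DNA-binding chain of GABP (0.19). Yy1 averaged 61.0 ± 1.34 CPM in AdKO fat and 61.0 ± 3.70 CPM in WT fat, and Nrf1 9.62 ± 0.717 CPM in AdKO fat and 9.16 ± 0.478 CPM in WT fat (SD, n = 3 each), a pair picked once their values were known.

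In the NADH-oxidising module, 10 of 10 subunits were positive (median log2 fold change 0.33), and 9 of 10 without AdKO library 1 (median 0.14). Every AdKO library was above every WT library for 2 of the 10, against 7.63% of all genes. Ndufv1 binds the flavin that accepts electrons from NADH. It stood at 713, 570.2 and 595 CPM in AdKO libraries 1 to 3, against 456, 544 and 572 CPM in WT libraries 1 to 3. The lowest AdKO value lay just under the highest WT value, and the log2 fold change was 0.26 ± 0.15 (SE, edgeR adjusted p = 0.590). Ndufv2, its iron-sulfur partner, stood at 453, 313 and 345 CPM in AdKO fat and 331, 301 and 279.7 CPM in WT fat (0.29 ± 0.17), again with overlap.

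Ndufs1 was the one subunit with another pattern. It is the iron-sulfur protein that carries electrons away from Ndufv1 and Ndufv2, and its transcript, at 2590 bases, is the longest of the 36. Its level was 447, 543 and 541 CPM in AdKO libraries 1 to 3, against 483, 480.1 and 430.2 CPM in WT libraries 1 to 3. AdKO library 1, the highest for every other subunit, was here below WT libraries 1 and 2. Its log2 fold change was the smallest of all, 0.14 ± 0.13 (SE, edgeR adjusted p = 0.772), and the only one that grew without AdKO library 1, to 0.22.

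Among the accessory subunits of that module, Ndufs4, which is needed for a stable complex and whose loss in mice causes a Leigh-like brain disease, stood at 197, 136 and 169 CPM in AdKO fat and 143, 123 and 125 CPM in WT fat (log2 fold change 0.36 ± 0.16, SE). AdKO library 2 lay within the WT range. Ndufa7 stood at 129, 79.3 and 88.2 CPM in AdKO fat and 73.3, 75.9 and 76.3 CPM in WT fat. All AdKO values of Ndufa7 were above all WT values, by a narrow margin in library 2 (0.40 ± 0.19, edgeR adjusted p = 0.512). The other subunits of the module ranged from 0.29 for Ndufv3 to 0.40 for Ndufs6.

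In the quinone-reducing module, 5 of 5 were positive (median log2 fold change 0.34), and 4 of 5 without AdKO library 1 (median 0.098). Ndufs7 carries the cluster that hands electrons to ubiquinone. It stood at 399, 199 and 237 CPM in AdKO fat and 175, 233 and 253 CPM in WT fat; apart from AdKO library 1 the groups ran through each other, and its standard error was the largest of the 36 (0.34 ± 0.27, SE).

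Ndufs3 and Ndufs8 had separate groups. Ndufs3, a core protein of the arm, stood at 365, 253 and 288 CPM in AdKO libraries 1 to 3, against 234, 246 and 234 CPM in WT libraries (log2 fold change 0.34 ± 0.16, SE; edgeR adjusted p = 0.499). Ndufs8, which holds iron-sulfur clusters near the quinone site, stood at 304, 203 and 214 CPM in AdKO fat and 177, 196 and 184 CPM in WT fat (0.37 ± 0.17, adjusted p = 0.510). In both genes AdKO library 2 exceeded the highest WT library by a few percent at most. Ndufa5, an accessory subunit, had overlapping groups and a log2 fold change of 0.33.

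In the membrane arm, 10 of 10 subunits of the proximal part were positive (median log2 fold change 0.31), as were 10 of 10 of the distal part (median 0.32). Without AdKO library 1, 8 of 10 proximal (median 0.074) and 9 of 10 distal subunits (median 0.084) were positive. Every AdKO library was above every WT library for 3 proximal and 2 distal subunits, against 7.63% of all genes. Ndufa3, a small accessory subunit, had the largest fold change of all, with 176, 99.7 and 126 CPM in AdKO fat and 104, 94.0 and 94.9 CPM in WT fat (log2 fold change 0.45 ± 0.20, SE; edgeR adjusted p = 0.491). AdKO library 2 was under WT library 1. Ndufc2, another accessory subunit, had the smallest p, with 169.8, 116 and 136 CPM in AdKO libraries 1 to 3, against 105, 100.01 and 109.8 CPM in WT libraries. Its groups did not overlap, and its log2 fold change was 0.42 ± 0.16 (SE, edgeR unadjusted p = 0.0289, adjusted p = 0.409).

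Ndufa9, which binds a nucleotide at the joint of both arms, stood at 479, 371 and 413 CPM in AdKO fat and 323, 342 and 354 CPM in WT fat (log2 fold change 0.31 ± 0.14, SE; edgeR adjusted p = 0.479). Ndufa10, a relative of nucleoside kinases, stood at 567, 472 and 503 CPM in AdKO fat and 417, 448 and 436 CPM in WT fat (0.25 ± 0.12). Both had separate groups and, among the AdKO libraries, a smaller excess in library 1 than most subunits. Ndufa1, encoded on chromosome X, stood at 187, 101 and 119 CPM in AdKO fat and 103, 116 and 131 CPM in WT fat (0.22 ± 0.23). Ndufa13 stood at 205, 104 and 117 CPM in AdKO fat and 99.8, 119 and 123 CPM in WT fat (0.32 ± 0.25). For these last genes AdKO libraries 2 and 3 fell inside or below the WT range, and without AdKO library 1 the log2 fold change was -0.080 for Ndufa1 and -0.041 for Ndufa13. Ndufc1 stood at 139, 87.0 and 99.5 CPM in AdKO fat and 96.6, 84.9 and 86.0 CPM in WT fat (0.28 ± 0.18), with overlap.

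Ndufb6, a distal accessory subunit, stood at 272, 173 and 200.2 CPM in AdKO libraries 1 to 3, against 158, 162 and 165 CPM in WT libraries. Its groups were separate, and its log2 fold change was 0.42 ± 0.18 (SE, edgeR adjusted p = 0.467). Ndufb5 stood at 271, 199.6 and 219 CPM in AdKO fat and 198.6, 179 and 176 CPM in WT fat, separate by about 1 CPM (0.31 ± 0.15). Ndufb10 had its lowest value of all in AdKO library 2, with 260.3, 159.7 and 189 CPM in AdKO fat and 169, 179 and 167 CPM in WT fat (0.24 ± 0.18). The abundant Ndufb8 stood at 567, 352 and 383 CPM in AdKO fat and 321, 352 and 367 CPM in WT fat (0.32 ± 0.19). Ndufb9, a protein of the LYR family that holds an acyl carrier protein, stood at 523, 334 and 379.6 CPM in AdKO fat and 332, 331 and 347 CPM in WT fat (0.29 ± 0.18). AdKO library 2 lay below the WT range for Ndufb10 and within it for Ndufb8 and Ndufb9, and AdKO library 3 lay above it for all 3. Ndufa4 stood at 592, 395 and 453 CPM in AdKO fat and 399, 368 and 391 CPM in WT fat (0.32 ± 0.16), with AdKO library 2 under WT library 1.

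In all, 10 of the 36 subunits (27.8%) had each AdKO library above each WT library, and none the reverse. Over all genes tested, 7.63% had all AdKO libraries above and 10.8% had all below. The 7 nuclear core subunits had a median log2 fold change of 0.29 and the 28 accessory ones of 0.32, leaving out Ndufa4. Without AdKO library 1 these medians were 0.15, with 6 of 7 positive, and 0.098, with 24 of 28 positive. The median deviation in AdKO library 1 was 0.63 in the NADH module, 0.71 in the quinone module, 0.69 in the proximal and 0.72 in the distal membrane arm.

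**Figure D3:**
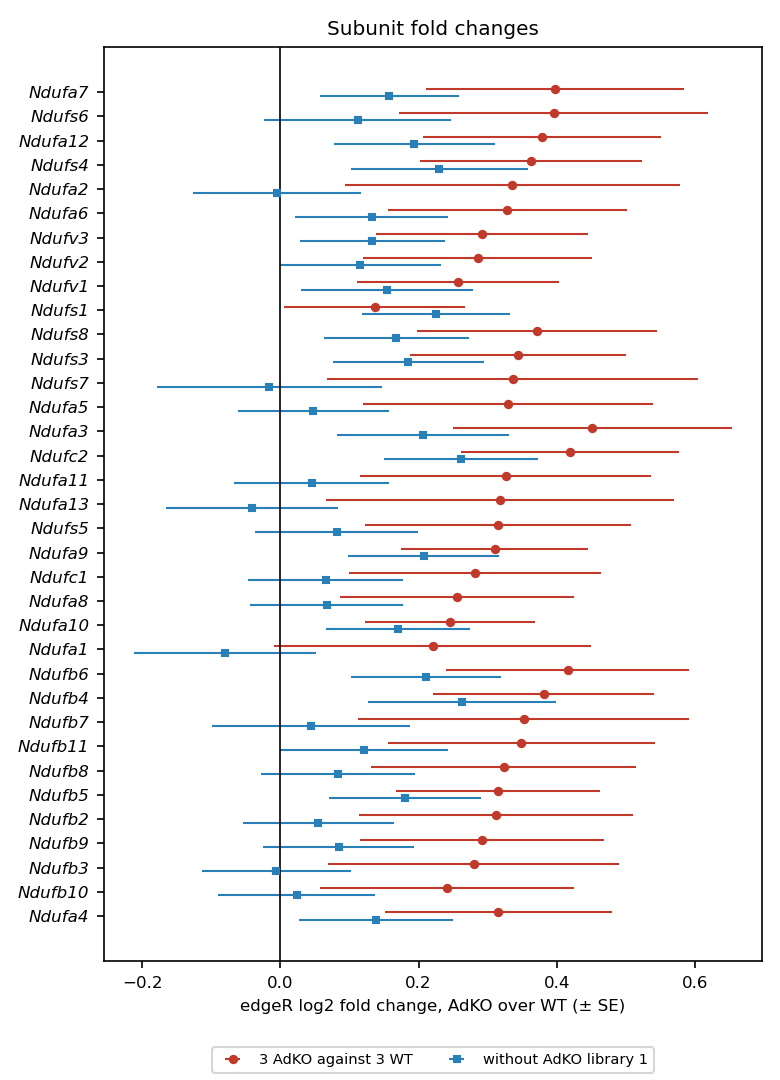
edgeR log2 fold change, AdKO over WT, with its standard error for 35 subunits, from all 6 libraries (red circles) and without AdKO library 1 (blue squares). With all libraries the values lie between 0.14 and 0.45; without AdKO library 1, 5 are below 0.

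Within AdKO library 1 the size of the deviation went with transcript length. The subunits have short transcripts, with a median of 812 bases against 2720 over all genes tested. Across the 36 the deviation in that library had a Pearson correlation of -0.71 with log2 length, a description over genes of 1 library. Of the 36, 35 were above the median of all genes in their length bin in AdKO library 1, 27 in AdKO library 2 and 35 in AdKO library 3. The 23 subunits in the bin of shortest transcripts had a median deviation of 0.72 in AdKO library 1, where all genes of that bin had 0.43, and 0.18 in AdKO library 3, where all genes had 0.09. In AdKO library 2 the values were -0.01 for the subunits and -0.06 for all genes. When each library's trend on length and GC content was removed, the median deviation of the 36 was 0.32, 0.09 and 0.18 in AdKO libraries 1 to 3 and between -0.03 and 0.03 in WT libraries. In that fit the median log2 fold change was 0.21, against 0.02 over all genes, with 36 of 36 positive, a range of 0.02 to 0.31 and 0 called (lowest edgeR adjusted p = 0.237). At an unadjusted p under 0.05, 15 of 36 were higher in that fit, against 6.53% of all genes.

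**Figure D4:**
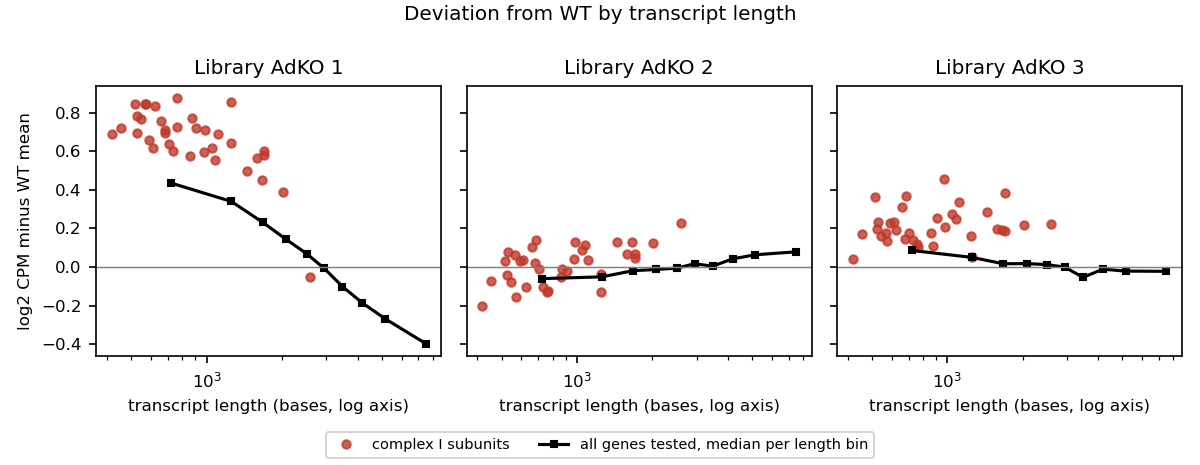
Deviation of log2 CPM from the WT mean against transcript length (log axis) in the 3 AdKO libraries, for 35 subunits (red) and as the median of all genes tested in 10 bins of length (black squares). In AdKO 1 the black line runs from 0.43 to -0.40 with length and 34 of the 35 subunits exceed the median of their bin, all but Ndufs1; in AdKO 2 the line runs from -0.06 to 0.08 and in AdKO 3 from 0.09 to -0.02.

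The 20 muscle markers had a median log2 fold change of -2.27, with 0 called by edgeR. Without AdKO library 1 the median was -5.65 and all 20 were called lower, against 5.35% of all genes. Muscle fibres are rich in complex I, and how much muscle RNA adds to the subunit values was not tested. The share of counts in the 36 subunits was 1.07%, 0.765% and 0.827% in AdKO libraries 1 to 3 and 0.742%, 0.770% and 0.819% in WT libraries 1 to 3, so AdKO library 2 lay within the WT range and AdKO library 3 just above it. With the mean log2 CPM of the muscle markers as a covariate, the median log2 fold change was 0.60, with 35 of 36 positive and 0 called (lowest edgeR adjusted p = 0.278). At an unadjusted p under 0.05, 33 of 36 were higher in that fit, against 8.4% of all genes. That score was 8.49, 4.77 and 1.36 in AdKO libraries 1 to 3 and 9.59, 9.40 and 9.12 in WT libraries 1 to 3. Only AdKO library 1, the one set apart by transcript length, lay near WT. The genotype term of that fit therefore rests largely on AdKO library 1, and covariate and genotype are only partly told apart. Some subunits also share ground with another gene: 14 have an annotated gene on the opposite strand, and no source at hand says whether counting used strand. The overlapping genes with the most counts over the 6 libraries were Eef1b2 beside Ndufs1 (6186), Mrpl47 beside Ndufb5 (3807) and Mrpl36 beside Ndufs6 (3345).

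The 7 complex I subunits encoded by mitochondrial DNA, which form the proton-pumping core of the membrane arm, had their own order of libraries. Per kilobase they stood at 6798 to 18899 CPM, far above the nuclear subunits. None was called and 6 of 7 were positive (median log2 fold change 0.25), and 7 of 7 without AdKO library 1 (median 0.21). mt-Nd3 had the smallest p, at 3994, 3839 and 4265 CPM in AdKO libraries 1 to 3, against 2494, 3270 and 3000 CPM in WT libraries, all AdKO values above all WT values (log2 fold change 0.46 ± 0.12, SE; edgeR unadjusted p = 0.00542, adjusted p = 0.244). mt-Nd1 (0.29) and mt-Nd2 (0.25) also had separate groups. mt-Nd6 (0.25), mt-Nd4 (0.11) and mt-Nd5 (0.06) overlapped. mt-Nd4l, the shortest, was lowest in AdKO library 1, at 1643, 2906 and 3101 CPM in AdKO libraries and 2911, 2726 and 2149 CPM in WT libraries (-0.03 ± 0.24). The list's median deviation was 0.23, 0.15 and 0.31 in AdKO libraries 1 to 3, so its high point was library 3 and not library 1, and 2 of the 7 genes were highest in AdKO library 1.

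The 3 tested relatives outside the naming rule had positive log2 fold changes with a median of 0.25, and none was called. Without AdKO library 1, 2 of the 3 were positive and the median was 0.00096. Ndufab1, the mitochondrial acyl carrier protein that is also a complex I subunit, stood at 327, 264 and 301 CPM in AdKO libraries 1 to 3, against 245, 239 and 232 CPM in WT libraries, with separate groups (log2 fold change 0.32 ± 0.13, SE; edgeR adjusted p = 0.442). Ndufb1-ps stood at 63.5, 38.5 and 43.9 CPM in AdKO fat and 45.6, 38.9 and 39.2 CPM in WT fat (0.24 ± 0.19). Ndufa4l2, a hypoxia-induced relative of Ndufa4, was low, at 11.6, 7.06 and 7.501 CPM in AdKO fat and 5.58, 6.92 and 9.36 CPM in WT fat (0.25 ± 0.27). The pseudogene Ndufab1-ps was at 0 in 5 libraries and was not tested.

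Complex I assembly factors, which build the enzyme but do not remain in it, were expressed far below the subunits, at 5.64 to 57.8 CPM per kb. Of 17 tested, 17 were positive and 0 called, with a median log2 fold change of 0.16; without AdKO library 1, 13 of 17 were positive (median 0.12). Every AdKO library was above every WT library for 7 of the 17, against 7.63% of all genes. The 4 with the smallest p were Nubpl, an iron-sulfur carrier for complex I (0.32 ± 0.13, SE; edgeR adjusted p = 0.449), the methyltransferase Ndufaf7 (0.30 ± 0.13), Foxred1 (0.25 ± 0.11) and the hydroxylase Ndufaf5 (0.32 ± 0.16). Nubpl stood at 20.0, 17.1 and 19.0 CPM in AdKO libraries 1 to 3, against 14.6, 15.3 and 15.1 CPM in WT libraries. The median deviation of the factors was 0.33, 0.07 and 0.17 in AdKO libraries 1 to 3; with a median transcript of 1487 bases they are longer than the subunits.

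Other nuclear respiratory chain genes gave like medians, and no difference between complexes was tested. The median log2 fold change was 0.34 for 13 genes of complexes II and III and 0.41 for 13 of complex IV. It was 0.26 for 16 of ATP synthase, beside 0.32 for complex I. None of these genes was called. All 13 of complexes II and III were positive, as were 12 of 13 of complex IV and 14 of 16 of ATP synthase. The lowest value was -1.54 in complex IV and -1.52 in ATP synthase. The median deviation in AdKO library 1 was 0.58 for complexes II and III, 0.74 for complex IV and 0.59 for ATP synthase. Cytosolic ribosomal proteins, also short at a median of 768 bases, had a median deviation of 0.48, -0.28 and -0.03 in AdKO libraries 1 to 3. They shared the height of library 1 but not of library 3. With all libraries the median log2 fold change was 0.25 for mitochondrial and 0.08 for cytosolic ribosomal proteins. Without AdKO library 1 it was 0.11 for mitochondrial and -0.15 for cytosolic ribosomal proteins. In that fit it was 0.19 for complexes II and III, 0.19 for complex IV and 0.06 for ATP synthase, beside 0.12 for complex I. There, 1 gene each of complex IV, ATP synthase and the cytosolic ribosomal proteins was called lower, against 5.35% of all genes.

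**Figure D5:**
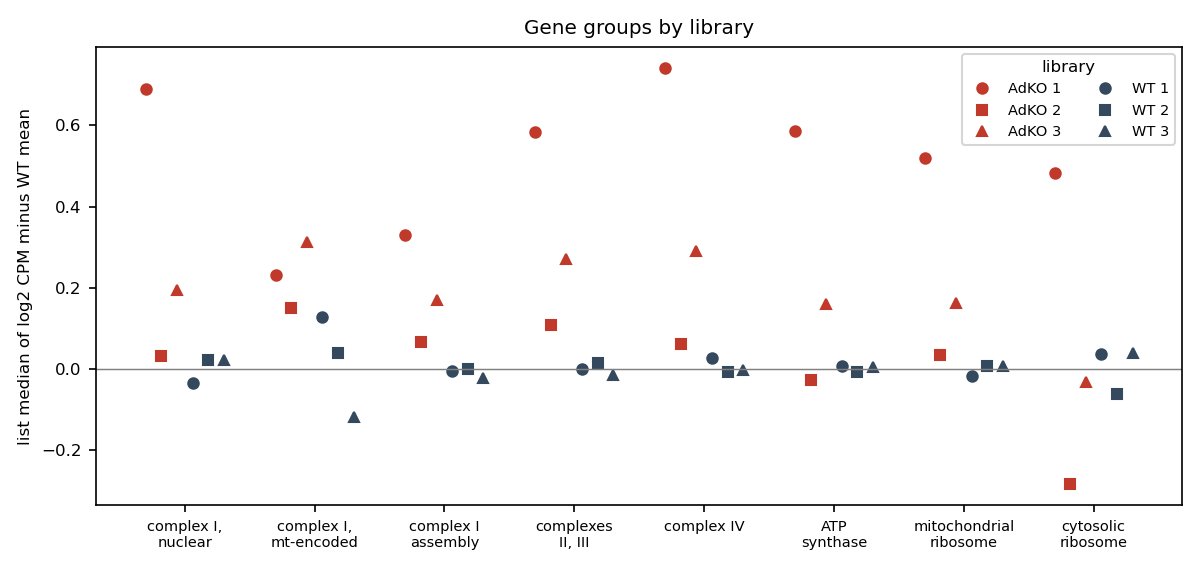
Median deviation of log2 CPM from the WT mean for 8 gene groups in each library (red AdKO, dark WT; symbols mark the library number). AdKO 1 is the highest library for every nuclear group, whereas for the mitochondrially encoded complex I subunits AdKO 3 is highest, at 0.31.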

How the data were processed

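Polyadenylated RNA of 3 AdKO and 3 WT brown fat samples was sequenced in paired-end libraries, per the labels' protocols. Where the series' own design note differs (inguinal depot, 4 replicates, cold not mentioned), sample labels were followed. The authors deposited 1 table of estimated counts, by gene and without normalization. The submitters' processing notes name StringTie, Salmon, edgeR and GRCm38; versions, annotation and strand use were not given in the sources used here. Symbols, positions and transcripts came from GENCODE vM21 (54131 identifiers matched, 254 did not).

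Estimated counts were rounded and tested with edgeR 4.0.16 in R 4.3.3: filterByExpr (minimum count 10, minimum total 15), TMM, glmQLFit and glmQLFTest with genotype only, two-sided, Benjamini-Hochberg over 14767 genes, threshold 0.05. The common biological coefficient of variation was 25.2%. CPM are per 1000000 of TMM-scaled library size. A standard error is the size of the log2 fold change divided by the square root of F. Deviations are log2 CPM with a prior count of 2, minus the WT mean. Transcript length is that of the best-ranked (APPRIS, support level) protein-coding transcript, the shortest where tied, a rule changed from the longest after the annotated transcripts of Ndufb2 were seen. Length and GC trends were fitted as natural splines per library and used as offsets. Copies were sought with blastn 2.17.0. Replicates differed by more than sampling noise. The labels do not say that samples are from separate mice beyond their replicate numbers, so p-values describe only the spread among these 6 samples, which may be technical. The procedure was tested on simulated data with larger changes than those of the subunits, so detection at their size was not tested. Alternatives used DESeq2 1.42.0, limma 3.58.1 (voom) and other settings given at the end.

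The members, lists and tests were chosen with earlier results of these data known, and the 4 promoter motifs described were picked from 11 after their shares were seen. Values per library are given for the nuclear core subunits, the 4 highest and lowest by level and by fold change, the 4 smallest p and up to 6 with separate groups. Of the members, 1 is not reported singly here; it stays in the fits and the counts over all members.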

Additional observations from a re-analysis of the deposited data

How the results depend on the processing

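None of the 36 subunits was called under any of the 17 alternatives run. Their median log2 fold change stayed positive, between 0.12 (without AdKO library 1) and 0.60 (muscle score as covariate). Of 612 refitted subunit values 6 changed sign, none passing: leaving out 1 library gave -0.080 to 0.40 for Ndufa1, -0.041 to 0.50 for Ndufa13, -0.0044 to 0.53 for Ndufa2, -0.0058 to 0.45 for Ndufb3 and -0.016 to 0.53 for Ndufs7, each lowest without AdKO library 1, and the muscle score gave -0.037 for Ndufs1. Leaving out each library gave a median of 0.12 to 0.46, 31 to 36 positive subunits, and 4 to 857 called genes over all genes (9 with all libraries), the 857 (45 higher, 812 lower) without AdKO library 1. Over all genes DESeq2 called 307, limma-voom 33, no low-count filter 893, the replicate block 4 and the muscle score 18. Adcy3 stayed called throughout. Same-numbered samples had deviations correlated at 0.07, 0.11 and 0.05, each sample best with its own number. These deviations were centred within each genotype, which forces a best match that is not negative, so the matching is a description only. The labels give no pairing, and the replicate block left the subunit median at 0.29 with 36 positive and 0 called. Summing copies into their gene was chosen after seeing the data and left the median at 0.32. With 3 libraries a group, the standard errors of single subunits were 0.12 to 0.27, beside a median difference of 0.32.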
